A study of Mus musculus with 2 samples.

Results

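The Kruppel-like factor (Klf) genes of colon epithelial cells were compared after incubation of the cells with MIF, against PBS. The members were Klf2, Klf3, Klf4, Klf5, Klf6, Klf9, Klf10, Klf13 and Klf15, and each was represented by every probe set whose only gene symbol on the platform was that of the member. Of these 9 genes, 8 had a probe set, and the 8 genes held 20 of the 15279 probe sets of the table that were not array controls. The expression of Klf15 was not analysed here. The cells of both groups came from C57BL/6 mice, an inbred strain, at 7 weeks of age. MIF was read as macrophage migration inhibitory factor, a cytokine of inflammation, and PBS is the buffered salt solution of the control incubation. Each incubation was measured on 1 Affymetrix array, so there is no spread between samples, no test, and no p-value. Not given in the sources used here are the amount of MIF, the length of incubation, how many animals were used and how the cells were isolated.

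The Klf genes as a family had nearly equal signals on both arrays, and Klf6 stood highest towards MIF. With each gene represented by its probe set of highest mean signal, the log2 difference, MIF array minus PBS array, lay between -0.09 and 0.20 for the 8 genes, with a median of -0.03. The median over all 5839 assessed genes was -0.01. No member was past 1.2-fold in either direction, where 6.82% of assessed genes were higher and 6.29% lower by that size, and past 1.5-fold these shares were 0.634% and 0.462%. Counting each probe set on its own, 2 of 17 were past 1.2-fold higher, 1 of Klf6 and 1 of Klf9, and none was lower by that size. Among all 8661 assessed probe sets these shares were 8.96% higher and 5.88% lower. Past 1.5-fold there was no Klf probe set, against 0.901% of assessed probe sets higher and 0.473% lower.

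Kruppel-like factors are transcription factors with zinc fingers at the C-terminal end, by which they bind GC-rich and CACCC boxes in promoters. In the gut epithelium Klf5 is known from the dividing cells of the crypt and Klf4 from the differentiated cells nearer the lumen, and Klf4 is required for goblet cells of the mouse colon to mature. Other members repress or activate genes in response to hormones, growth factors and stress.

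The cells carried the markers of the labelled tissue. All 8 epithelial markers in the list lay above the signal floor on both arrays, among them Epcam at 8830 on the MIF array and 8889 on the PBS array, and Krt20, a keratin of mature colonocytes, at 7479 on the MIF array and 7972 on the PBS array. The floor, below which a signal was not assessed, was the 40th percentile of all signals, a signal of 232. The median signal over all probe sets was 345 on the MIF array and 336 on the PBS array, a log2 difference of 0.04. In bulk RNA, fewer cells of a type and less RNA per cell cannot be told apart.

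Signals of different probe sets depend on their probes as well as on the RNA, so each was compared between arrays and not with other probe sets. A measure of disagreement within these arrays came from separate probe sets of 1 gene. Their log2 differences had an SD of 0.15 around the mean of their gene. It was taken over 1800 genes with at least 2 probe sets measured above the floor in both columns. This SD covers differences between probe sets on the same RNA. It does not cover an error shared by all probe sets of an array, or the spread between cell preparations. For comparison, the log2 differences of all 5543 genes above the floor on both arrays had an SD of 0.19. Of the 17 assessed Klf probe sets, 11 lay within 0.15 of 0, the SD between probe sets. The share of all assessed probe sets within it was not computed, so this count does not set the Klf genes apart. The remaining 6 were 2 of Klf3, 2 of Klf6, 1 of Klf9 and 1 of Klf13.

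**Figure D1:**
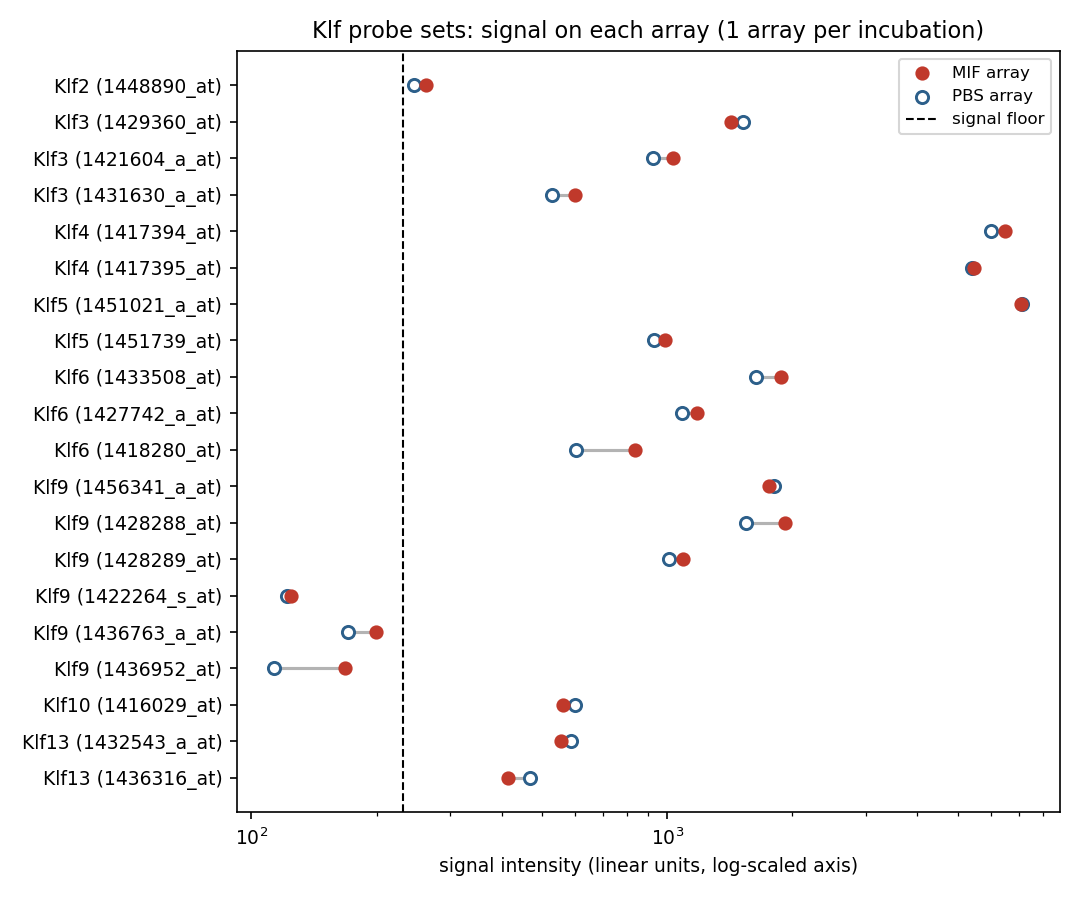
Signal intensity of the 20 Klf probe sets, 1 per row, on a log-scaled axis, with the MIF array as filled points, the PBS array as open points and the floor of 232 as a dashed line. The points of a row are close together in most rows, the widest gap above the floor is that of Klf6 probe set 1418280_at (836 on the MIF array and 603 on the PBS array), and 3 Klf9 probe sets lie under the floor on both arrays. Horizontal positions of different rows are not comparable as levels.

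Promoter sequences of 3 members whose probe sets all went 1 way are shown first. They are the 250 bases before the start of Klf6, Klf4 and Klf13. Klf6 and Klf4 had the highest differences when each gene stood by its probe set of highest mean signal. Both Klf13 probe sets were lower. The sequences are from RefSeq, build GRCm38.p6, written 5′ to 3′ on the strand of the gene, and 7 of the 9 members were matched, Klf15 among them. Klf6 is at chr13:5861239-5861488 on the plus strand, Klf4 at chr4:55532476-55532725 on the minus strand and Klf13 at chr7:63938916-63939165 on the minus strand. Capitals mark GC boxes (GGGCGG or its reverse complement) and CACCC boxes (CACCC or its reverse complement), the kinds of element that Klf and Sp proteins bind.
Klf6: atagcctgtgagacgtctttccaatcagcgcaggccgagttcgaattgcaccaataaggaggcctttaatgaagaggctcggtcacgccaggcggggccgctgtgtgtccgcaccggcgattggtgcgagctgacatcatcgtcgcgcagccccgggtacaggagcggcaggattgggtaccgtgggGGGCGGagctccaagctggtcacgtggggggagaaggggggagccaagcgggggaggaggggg
Klf4: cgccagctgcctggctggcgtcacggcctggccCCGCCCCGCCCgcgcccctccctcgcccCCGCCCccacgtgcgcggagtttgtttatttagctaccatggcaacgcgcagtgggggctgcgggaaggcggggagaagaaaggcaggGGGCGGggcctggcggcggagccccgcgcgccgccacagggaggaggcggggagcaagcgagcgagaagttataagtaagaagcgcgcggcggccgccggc
Klf13: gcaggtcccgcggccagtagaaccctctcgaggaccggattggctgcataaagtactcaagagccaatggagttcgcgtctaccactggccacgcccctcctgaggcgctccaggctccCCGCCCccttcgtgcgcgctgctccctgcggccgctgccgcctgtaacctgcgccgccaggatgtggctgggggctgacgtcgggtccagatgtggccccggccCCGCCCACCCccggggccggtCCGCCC

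The Klf6 window held 1 GC box, from 63 to 58 bases before the start, and no CACCC box. It also held 4 CCAAT boxes, counted on both strands, and 1 palindromic CACGTG E-box, the element bound by Myc and by clock proteins. The Klf4 window held 4 GC boxes, of which 1 pair overlapped by a base, 1 CACGTG and neither CACCC nor CCAAT. The Klf13 window held 3 GC boxes, 1 CACCC box that overlapped a GC box, and 2 CCAAT boxes. None of the 7 matched windows held TATAAA, a motif present in 12.4% of the 32851 windows of equal length in the table. At least 1 GC box was in 6 of the 7 windows (32.7% of all windows), at least 1 CACCC in 5 (52.0%), at least 1 CCAAT in 4 (33.8%) and at least 1 CACGTG in 3 (6.02%). The 7 windows were rich in G and C, from 59.6% for Klf9 to 78.4% for Klf3. The shares over all windows were not matched for this base composition, on which such counts depend. These matches describe letters in a window, not bound sites.

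Of the growth and differentiation pair of the crypt, Klf4 had 2 probe sets. Probe set 1417394_at gave a signal of 6501 on the MIF array and 6022 on the PBS array, a log2 difference of 0.11. Probe set 1417395_at gave 5479 on the MIF array and 5416 on the PBS array, a difference of 0.02. Both were marginally higher with MIF, by less than the SD between probe sets. For Klf5, which promotes division of crypt cells, probe set 1451021_a_at gave 7102 on the MIF array and 7150 on the PBS array, a difference of -0.0098. Its other probe set, 1451739_at, gave 990 on the MIF array and 929 on the PBS array, a difference of 0.09. The arrays thus had nearly the same Klf5 signal on either probe set, and the sign of the first depended on the scaling, being 0.04 after quantile normalization.

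Klf6 is a widely expressed member whose transcript is induced early after injury and growth signals in several tissues, and which can activate the cell cycle inhibitor gene Cdkn1a. Its 3 probe sets were all higher on the MIF array. Probe set 1433508_at gave a signal of 1876 on the MIF array and 1633 on the PBS array, a log2 difference of 0.20, or 1.15-fold. Probe set 1427742_a_at gave 1178 on the MIF array and 1085 on the PBS array, a difference of 0.12. Probe set 1418280_at gave 836 on the MIF array and 603 on the PBS array, a difference of 0.47, or 1.39-fold. The direction was shared and the size was not, with a range of 0.35 between the probe sets. Of the 388 genes with exactly 3 probe sets that cleared the floor on both arrays, 31.7% had all 3 higher, and 78 had a range at least as wide as that of Klf6. The median range of these genes was 0.21.

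Klf9 and Klf10 are members known to respond to hormones and growth factors. Klf9, induced by glucocorticoid and thyroid hormones, had 6 probe sets, of which 3 lay above the floor. Probe set 1456341_a_at gave 1759 on the MIF array and 1812 on the PBS array, a log2 difference of -0.04. Probe set 1428288_at gave 1918 on the MIF array and 1548 on the PBS array, a difference of 0.31, or 1.24-fold. Probe set 1428289_at gave 1088 on the MIF array and 1011 on the PBS array, a difference of 0.11. The probe set of highest mean signal, which stands for the gene, thus went against the other 2. Opposed directions were common, occurring in 49.5% of genes with 3 such probe sets. The other 3 Klf9 probe sets lay between 125 and 199 on the MIF array and between 113 and 171 on the PBS array, all under the floor, and were not assessed. Klf10, also known as a gene induced early by transforming growth factor beta, had 1 probe set with 563 on the MIF array and 599 on the PBS array, a difference of -0.09.

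Among the remaining members, Klf3 and Klf13 can act as repressors, Klf3 by recruiting the corepressor CtBP. Klf3 probe set 1429360_at gave 1424 on the MIF array and 1520 on the PBS array, a log2 difference of -0.09. Probe sets 1421604_a_at and 1431630_a_at differed by 0.17 and 0.18, the first at 1035 on the MIF array and 922 on the PBS array and the second at 599 on the MIF array and 528 on the PBS array. The sign of Klf3 therefore depended on the probe set. Klf13, known as a regulator of the chemokine gene Ccl5 in T cells, was the only member with several probe sets all lower. Probe set 1432543_a_at gave 554 on the MIF array and 587 on the PBS array, a difference of -0.08, and probe set 1436316_at gave 415 on the MIF array and 467 on the PBS array, a difference of -0.17. Of 1246 genes with exactly 2 probe sets that cleared the floor on both arrays, 30.3% had both lower and 33.5% both higher.

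Klf2, which keeps lymphocytes quiescent and responds to flow in endothelium, had 1 probe set just above the floor, at 263 on the MIF array and 246 on the PBS array, a log2 difference of 0.10. Most markers of the cells best known for it lay under the floor, the granzyme genes excepted. Of 8 endothelial markers 3 were in the table, Cdh5, Tek and Vwf, and none was above a signal of 36.6 on the MIF array or 25.4 on the PBS array. Of 12 lymphocyte markers 5 were in the table, and their summed signal was 884 on the MIF array and 1642 on the PBS array. The T cell markers Cd3g and Cd8a and the general leukocyte marker Ptprc were under the floor on both arrays. The granzyme genes were above it, Gzma at 403 on the MIF array and 813 on the PBS array and Gzmb at 282 on the MIF array and 541 on the PBS array. The part of lymphocytes in the Klf2 signal was not tested.

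**Figure D2:**
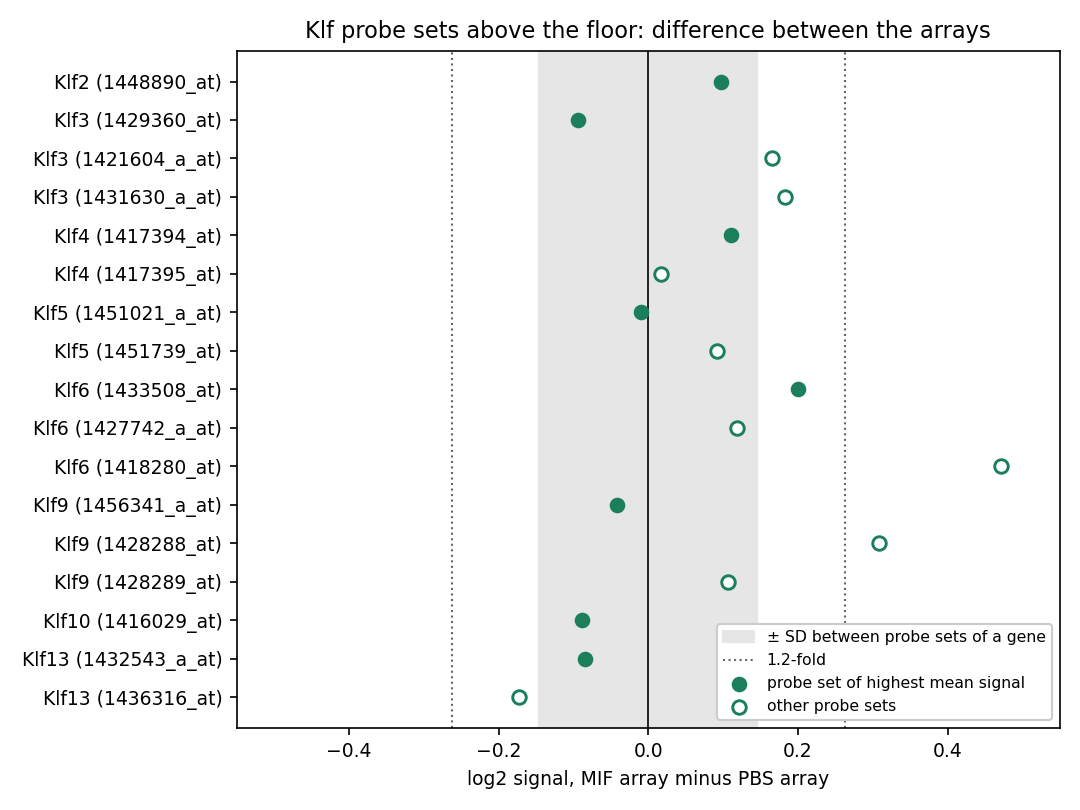
Log2 difference, MIF array minus PBS array, of the 17 Klf probe sets above the floor. Filled points are the probe set of highest mean signal of each gene, open points its other probe sets, the grey band reaches 0.15, the SD between probe sets within genes, on either side of 0, and dotted lines mark 1.2-fold. The 3 Klf6 points lie to the right of 0, from 0.12 to 0.47, both Klf13 points lie to the left, and the points of Klf3, Klf5 and Klf9 lie on both sides.

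Across all 17 assessed probe sets, 11 were higher and 6 lower on the MIF array, a share to be read against 50.9% of all assessed probe sets with a difference above 0. Counted as genes, 3 were higher (Klf2, Klf4 and Klf6) and 5 lower, where 46.8% of assessed genes were above 0. The median over probe sets was 0.10 and that over genes -0.03, so the sign of the family's median depended on which probe sets were counted. Of the 6 genes with at least 2 probe sets above the floor, 3 had opposed probe sets. Over all genes, opposed signs occurred in 36.3% of those with exactly 2 such probe sets and 49.5% of those with exactly 3.

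**Figure D3:**
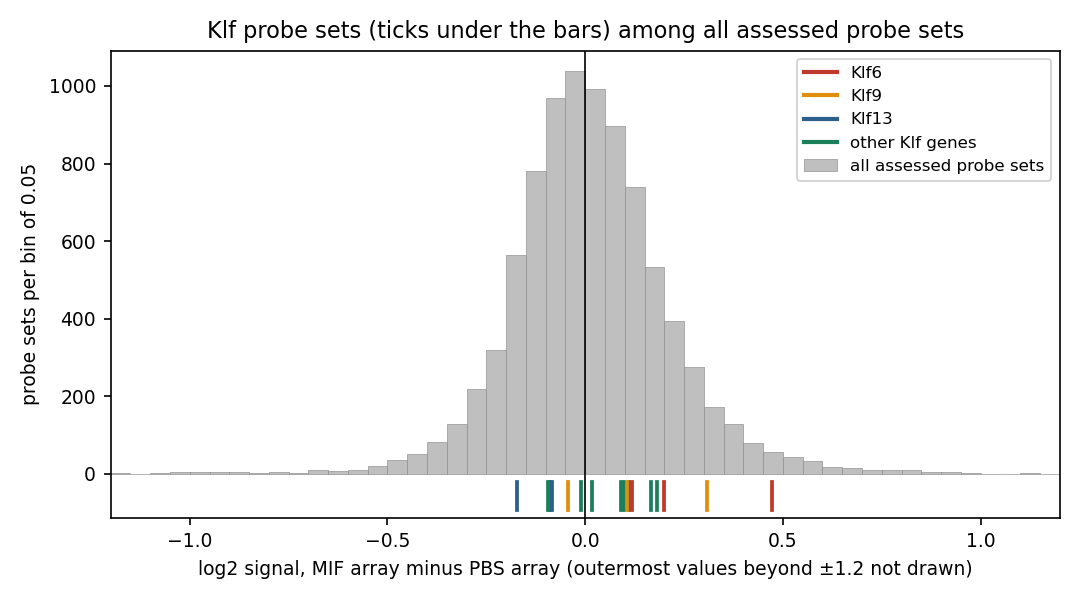
Log2 difference, MIF array minus PBS array, of all 8661 assessed probe sets as bars (number per bin of 0.05), with the 17 Klf probe sets as ticks under the bars. All Klf ticks but 2 fall inside the central part of the distribution, between -0.17 and 0.20, the exceptions being Klf9 at 0.31 and Klf6 at 0.47.

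The other Sp and Klf genes bind the same boxes. Of 17 listed, 7 were in the table and 3 were assessed. Sp3, a dual activator and repressor, gave a signal of 615 on the MIF array and 417 on the PBS array on its single probe set, a log2 difference of 0.56, or 1.48-fold. Sp1, a general activator of GC-box promoters, gave 2429 on the MIF array and 2692 on the PBS array, a difference of -0.15. Klf7 had 3 assessed probe sets with differences of -0.21, 0.28 and -0.07, so it had no single direction. Klf16, Klf17, Sp4 and Sp7 were below the floor throughout.

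Genes whose products work with Klf proteins, or control them, were then examined. In all lists a gene under the floor on 1 array was counted at its bound, as were Map2k5, Egfr and Tef. Counts in the lists are to be read against all assessed genes, of which 46.8% were above 0 and 53.2% below. Of 12 cofactor genes, 9 were assessed, with 6 above and 3 below 0 and a median log2 difference of 0.04. Hdac2, a histone deacetylase of the Sin3 complex, was past 1.2-fold at 453 on the MIF array and 365 on the PBS array, a difference of 0.31. Of all assessed genes, 6.82% were higher by that size. Kat2b, an acetyltransferase, differed by 0.18, Sin3b, a scaffold of that complex, by -0.17 and the deacetylase gene Hdac1 by 0.10. The CtBP genes Ctbp1 and Ctbp2 differed by -0.0077 and 0.08. Among ubiquitin ligases and related proteins of Klf turnover, 3 of 8 genes were assessed. Wwp1, which targets Klf5 and Klf2 for degradation, was higher on all 3 of its probe sets, by 0.31, 0.14 and 0.48. Of all genes with exactly 3 probe sets above the floor, 31.7% had all 3 higher. Itch, a related ligase, differed by 0.16 and Siah1a by -0.02.

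Of 18 genes of signals upstream of Klf genes, 14 were assessed, with 8 above and 6 below 0, a median of 0.03, and 3 past 1.2-fold higher, where 6.82% of all assessed genes were. With averaged probe sets none of the 3 was past 1.2-fold, since their other probe sets lay under the floor and entered at a difference of 0. The receptors of transforming growth factor beta were among these, Tgfbr2 at 965 on the MIF array and 758 on the PBS array (a log2 difference of 0.35) and Tgfbr1 at 532 on the MIF array and 424 on the PBS array (0.33). The tumour suppressor gene Apc, an inhibitor of Wnt signalling, was at 803 on the MIF array and 637 on the PBS array (0.33). Egr1, an immediate early transcription factor, differed by 0.16. Cdx2, an intestinal transcription factor that activates Klf4, differed by -0.02, and Nr3c1, the glucocorticoid receptor gene, by -0.04.

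Genes described as targets of Klf4 had small differences between the arrays. All 7 assessed genes of 13 listed were below 0, where 53.2% of all assessed genes were, with a median log2 difference of -0.14. The list does not separate genes that Klf4 activates from genes that it represses, and the activity of Klf4 was not tested. Of the 8 epithelial markers, 7 were below 0 too, with a median of -0.08, and both lists hold Krt19. Of the Klf4 targets, 1 was past 1.2-fold lower, where 6.29% of all assessed genes were. The count was 0 after quantile normalization, removal of the intensity trend or averaging of probe sets. It was 2 with median centring or with no floor, and 3 with each probe set on its own. The 1 gene as reported was Cdkn1a, which Klf4 activates, at 2834 on the MIF array and 3425 on the PBS array (-0.27). Its second probe set was opposed at 0.14. The keratin gene Krt19 differed by -0.23, the 14-3-3 gene Sfn by -0.22 and the cell cycle inhibitor gene Cdkn1b by -0.14. Of 10 listed targets of Klf5, 8 were assessed, with 6 below 0, a median of -0.09 and 3 past 1.2-fold lower, against the same shares of 53.2% and 6.29% of all assessed genes. These were genes of cell division, with Plk1, a mitotic kinase, at 417 on the MIF array and 544 on the PBS array (-0.38), Birc5, a chromosomal passenger protein, at 1146 on the MIF array and 1409 on the PBS array (-0.30), and Cdk1 at 950 on the MIF array and 1150 on the PBS array (-0.28). Fgfbp1, a carrier of fibroblast growth factors, differed by -0.13. The 4 assessed proliferation markers were below 0, from -0.28 for Cdk1, which both lists hold and which alone was past 1.2-fold, to -0.0054 for Pcna. Their summed signal was 8385 on the MIF array and 9089 on the PBS array.

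Markers of other cells of the crypt had mostly positive differences. All 4 assessed stem cell markers were above 0, where 46.8% of all assessed genes were. The summed signal of the stem cell markers was 1154 on the MIF array and 909 on the PBS array. Ascl2 and Lgr5 were bounds. Only their MIF signals cleared the floor, which by itself places a bound above 0. The count thus rests on Smoc2 and Axin2, both near the floor. Smoc2, a matricellular protein gene, was at 331 on the MIF array and 257 on the PBS array (0.37). Axin2, a Wnt target, was at 334 on the MIF array and 278 on the PBS array (0.27). Smoc2 and Axin2 were past 1.2-fold, where 6.82% of all assessed genes were higher by that size. Of 6 assessed goblet cell markers 5 were above 0, where 46.8% of all assessed genes were. The summed signal of the goblet cell markers was 42143 on the MIF array and 39380 on the PBS array. The 2 past 1.2-fold were Clca1 and Spdef, where 6.82% of all assessed genes were higher by that size. Clca1, a secreted mucus protein gene, was at 7092 on the MIF array and 4993 on the PBS array (0.51). It made up most of the gap in the summed signal. Spdef, a transcription factor of goblet cells, was at 361 on the MIF array and 266 on the PBS array (0.44). Agr2, Fcgbp, Zg16 and Tff3 differed by 0.08, 0.02, 0.01 and -0.0059, and the median of the list was 0.05. The part of these cell types in the Klf4 and Klf5 values and in those of their targets was not tested.

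Targets of the remaining members were few. Of 7 listed Klf2 targets, only Edn1, the endothelin 1 gene, was assessed, at 266 on the MIF array and 332 on the PBS array, a log2 difference of -0.32. Of 13 listed targets of Klf3, Klf6, Klf10, Klf13 and Klf15, 6 were assessed, with 2 above and 4 below 0 and a median of -0.12. Pck1, a gluconeogenic enzyme gene linked to Klf15 in mouse liver, was at 928 on the MIF array and 501 on the PBS array (0.89). This was past 1.5-fold, where 0.634% of all assessed genes were higher. Prodh, the proline oxidase gene, also linked to Klf15, went the other way, at 311 on the MIF array and 403 on the PBS array (-0.37). The aminotransferase gene Gpt differed by -0.22 and Lgals3, the galectin gene that Klf3 represses, by -0.18. Ccl5 was under the floor on both arrays.

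Programmes that drive Klf genes elsewhere were also read. Of 19 circadian clock genes 7 were assessed, and 6 were above 0, where 46.8% of all assessed genes were. Their median log2 difference was 0.17. Nr1d1, a clock repressor, was at 463 on the MIF array and 353 on the PBS array (0.39), Nfil3, a repressor of clock output genes, differed by 0.18, Clock by 0.18 and Bhlhe40 by 0.17. Of 12 glucocorticoid-induced genes 10 were assessed, with 6 above and 4 below 0, against the same 46.8% above 0, and a median of 0.04. Dusp1, a phosphatase that inactivates MAP kinases, differed by 0.27 and Mt1, a metallothionein, by 0.18, while Fkbp5, a chaperone of the glucocorticoid receptor, differed by -0.14 and Errfi1, an inhibitor of the EGF receptor, by 0.12. Of 20 immediate early genes 16 were assessed, with 13 above 0, a median of 0.22 and 6 past 1.2-fold higher, against 46.8% and 6.82% of all assessed genes. Fosb was at 406 on the MIF array and 287 on the PBS array (0.50) and Atf3 at 1016 on the MIF array and 759 on the PBS array (0.42). Zfp36 and Jun differed by 0.41 and 0.35. The list ranged from -0.13, for both Ier2 and Ier5, to 0.50. All 8 Klf genes, between -0.09 and 0.20, lay within this range, so it sets none of them apart.

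**Figure D4:**
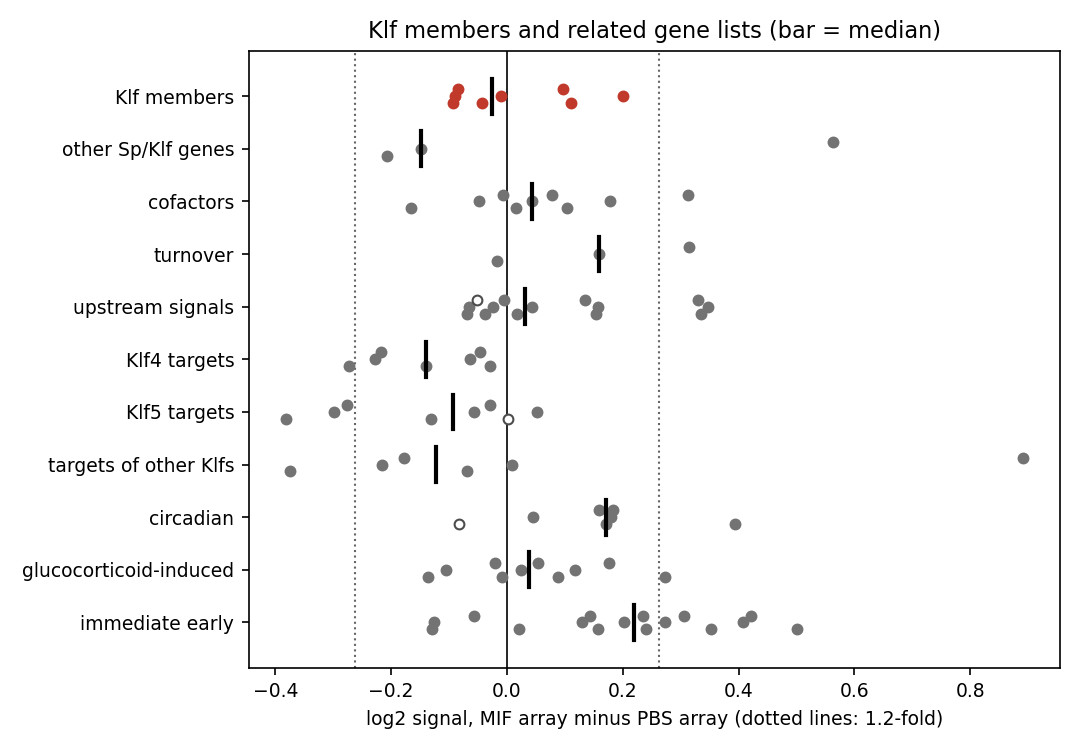
Log2 difference, MIF array minus PBS array, of the 8 Klf genes (red, probe set of highest mean signal) and of the assessed genes of each related list (grey, 1 point per gene), with the median of each as a bar and 1.2-fold as dotted lines. Open points are bounds, where 1 array lay under the floor. The Klf genes lie between -0.09 and 0.20 around a median of -0.03, the immediate early genes have the highest median at 0.22, and all Klf4 targets lie left of 0.

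Markers of stromal cells, in which Klf6, Klf4 and Klf9 are also expressed, differed between the arrays. All 8 fibroblast markers were in the table, with a summed signal of 1799 on the MIF array and 766 on the PBS array. Dcn, a matrix proteoglycan, gave 678 on the MIF array and 235 on the PBS array, Col3a1, a fibrillar collagen, gave 554 on the MIF array and 227 on the PBS array, under the floor, and Vim gave 253 on the MIF array and 175 on the PBS array, also under it. The other 5, Col1a1, Col1a2, Lum, Pdgfra and Thy1, were below the floor throughout. The part of fibroblasts in the Klf6 difference was not tested. The 7 myeloid markers had a summed signal of 1824 on the MIF array and 1771 on the PBS array, most of it from Cd14. Cd14 was at 1307 on the MIF array and 1318 on the PBS array. Lyz2 was at 243 on the MIF array and 188 on the PBS array, under the floor. The other 5, Adgre1, Cd68, Csf1r, Itgam and Itgax, were below the floor throughout, so the sum says little of myeloid cells.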

How the data were processed

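RNA of colon epithelial cells incubated with MIF or PBS was measured on 1 array each. Trizol was used to extract the RNA and biotin-labelled cRNA was made by Affymetrix's standard method, per the labels' protocols. The deposited values are a signal intensity per probe set on a linear scale, read from the values. How probes were summarised, corrected for background and scaled is not given in the sources used here. Of 15340 probe sets, 61 array controls were dropped. Names were assigned through GEO's platform annotation, with symbols updated by Entrez ID. Columns were used as deposited, lower signals were raised to the 40th percentile, and log2 differences are MIF minus PBS. Genes below this floor in both columns were not assessed, and in 1 column gave a bound. The 1.2-fold threshold is a rule of size, not a test. Named genes were all members, all assessed Sp and Klf genes, the 4 assessed genes with the largest difference of each other list plus any at 1.5-fold, and the assessed endothelial, lymphocyte, myeloid and fibroblast markers. The few other names (Cdx2, Nr3c1, Ctbp1, Ctbp2, Ccl5, Epcam, Krt20, Ier2, Ier5, Pcna, the stem and goblet cell markers, genes counted at a bound, and markers and family genes under the floor) were picked with values in view. The members and lists were chosen with earlier results of these data known, and some lists share genes. Alternatives were median centring, quantile normalization, removal of a loess trend (span 0.3), floors at the 20th or 60th percentile or none, averaged or single probe sets, leaving out cross-hybridising probe sets, and thresholds of 1.5-fold and 2-fold. The steps were tested on simulated data. Promoter boxes were searched on both strands. The number of arrays limits the precision. The software was Python 3.11.15 with pandas 2.3.3, numpy 2.4.6, matplotlib 3.10.9 and statsmodels 0.14.6.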

Additional observations from a re-analysis of the deposited data

How the results depend on the processing

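No paired analysis was possible because each group has 1 array. Under the 8 settings that keep 1 value per gene, Klf6 lay between 0.16 and 0.26 and Klf4 between 0.06 and 0.17, Klf10 and Klf13 were below 0 and Klf2 above 0 wherever assessed, and Klf3, Klf5 and Klf9 had either sign. Klf2 was not assessed with the floor at the 60th percentile. The family median ranged from -0.06 to 0.10. Klf genes past 1.2-fold higher numbered 1 with averaged probe sets (Klf6, at 0.26) and 2 with each probe set on its own, against 0 as reported. The median of the other Sp and Klf genes was -0.00034 with averaged probe sets, against -0.15 as reported. Counts over all genes depended on the floor. Past 1.2-fold there were 398 higher and 367 lower as reported, 748 and 558 for a floor at the 20th percentile, 198 and 220 for the 60th, 1359 and 899 with none, and 776 higher with each probe set on its own. Past 1.5-fold there were 37 and 27 as reported, 98 and 49 for the 20th, 19 and 12 for the 60th, 455 and 198 with none, and 78 and 41 with each probe set. Past 2-fold there were 4 and 5 as reported, 14 and 9 for the 20th, 1 and 1 for the 60th, 170 and 79 with none, and 2 higher with averaged or without cross-hybridising probe sets. Of the 214 recomputed counts within lists, 50 moved by more than 1.5 times or to or from 0, among them upstream signal genes past 1.2-fold higher, 0 with averaged probe sets against 3 as reported. The spread between cell preparations is unknown, and a signal near the floor gives little precision.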
